A study of Mus musculus with 4 samples.

Results

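The mouse genes of the Sox, Pax, Lhx, sine oculis homeobox (Six2 to Six6), Irx, Dlx and Nkx families, transcription factors that pattern the embryo, were examined in regulatory T cells with and without a floxed allele of Bmi1. A gene was taken when its name was the family name and a number alone (for Nkx, a number pair) and its transcript cluster carried that symbol and no other. That gave 65 transcript clusters for 63 genes, of 29860 genes measured: 19 Sox, 9 Pax, 7 Lhx, 5 sine oculis homeobox, 6 Irx, 6 Dlx and 11 Nkx genes. Lhx4 shared its cluster with Pdzrn4 and was left out. Nkx2-6 and Nkx6-3 were not analysed here.

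The arrays labelled KO (replicates 1 and 2) hold splenic regulatory T cells of C57BL/6 mice that carried a Foxp3 transgene encoding EGFP fused to Cre (B6-Tg(Foxp3EGFP-cre)1cJbs/J) together with BMI1-flox. The arrays labelled WT (replicates 1 and 3) hold the same cells of C57BL/6 mice with the Cre transgene alone, so every sample carried Cre under Foxp3 control. The mice were 7 to 8 weeks old, and 15000 to 40000 cells per sample were sorted on the green fluorescence that the transgene drives. Cre made under Foxp3 control is meant to act in cells that use Foxp3, and where it acted was not measured here. The titles call the cells unstimulated, but the series text has them activated for 24 h with antibodies to CD3 and CD28, and this could not be resolved. Separate animals are not stated, so the spread behind each p-value is that between arrays and may be technical, and 2 arrays a group limit the precision.

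Polycomb repressive complexes silence developmental regulators outside the tissues that use them. Complex 1, of which BMI1 is a subunit, adds ubiquitin to histone H2A and compacts chromatin, and complex 2 methylates histone H3. Genes of the families described here, whose starts often lie in DNA rich in CpG dinucleotides, are classical targets in embryonic stem cells. Sox proteins bind DNA through an HMG box, Pax proteins through a paired domain, and the other families through homeodomains, which Lhx proteins combine with LIM domains. A mature T cell is known to use only a few of them.

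The targeted gene did not read lower on the arrays labelled KO. Bmi1 read 9.58 and 9.91 on the arrays labelled KO and 8.98 and 8.98 on the arrays labelled WT (log2 values), so both arrays labelled KO were higher. The difference was 0.77 (SE 0.16, limma adjusted p 0.289), and which exons its 1 cluster covers or the floxed segment holds is not given in the sources used here. If it lies outside the floxed segment it says nothing about deletion. Each direction below therefore rests on the labels alone. Of 10 listed regulatory T cell markers 8 were measured here, and Foxp3 itself and Nrp1 were not among them. All 8, and all 9 measured T cell markers, lay above the background bar described next on all 4 arrays. Among them Lrrc32, a surface anchor of latent TGF-beta, was lower in both arrays labelled KO (-1.34, limma adjusted p 0.286) and the receptor Gpr83 was higher (1.15, limma adjusted p 0.343), and neither passed. Of the CD8 T cell markers, Cd8b1 read 10.71 and 11.26 on the arrays labelled KO and 9.74 and 10.78 on the arrays labelled WT, while Cd8a stayed below the bar.

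The table has no detection call, so each array's own background was used to ask which factors were expressed. A bar was set on each array at the 95th percentile of 1519 clusters for olfactory and vomeronasal receptors, genes of sensory neurons. It lay at 4.98 and 5.04 on the arrays labelled KO and at 5.11 and 5.08 on the arrays labelled WT, on the log2 scale. A gene above its bar on all 4 arrays was read as expressed, which held for 14020 of the 29860 genes (47%). By construction a share of the receptor clusters themselves lay above the bar, so a value just above it can be background. Probe sequences differ in how brightly they bind, so the values order no gene above another.

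Of the 63 factors, 4 were read as expressed (6.35%, against 47% of all genes): Sox4, Sox12, Sox13 and Six5. A further 57 lay below the bar on every array, and 2 (Sox8 and Nkx2-1) lay above it on some arrays only. No Pax, Lhx, Irx, Dlx or Nkx gene was read as expressed. A value below the bar says that a transcript could not be told from background on these arrays, not that it was absent. In a bulk sample, fewer cells that use a gene and less of its RNA per cell cannot be told apart.

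**Figure D1:**
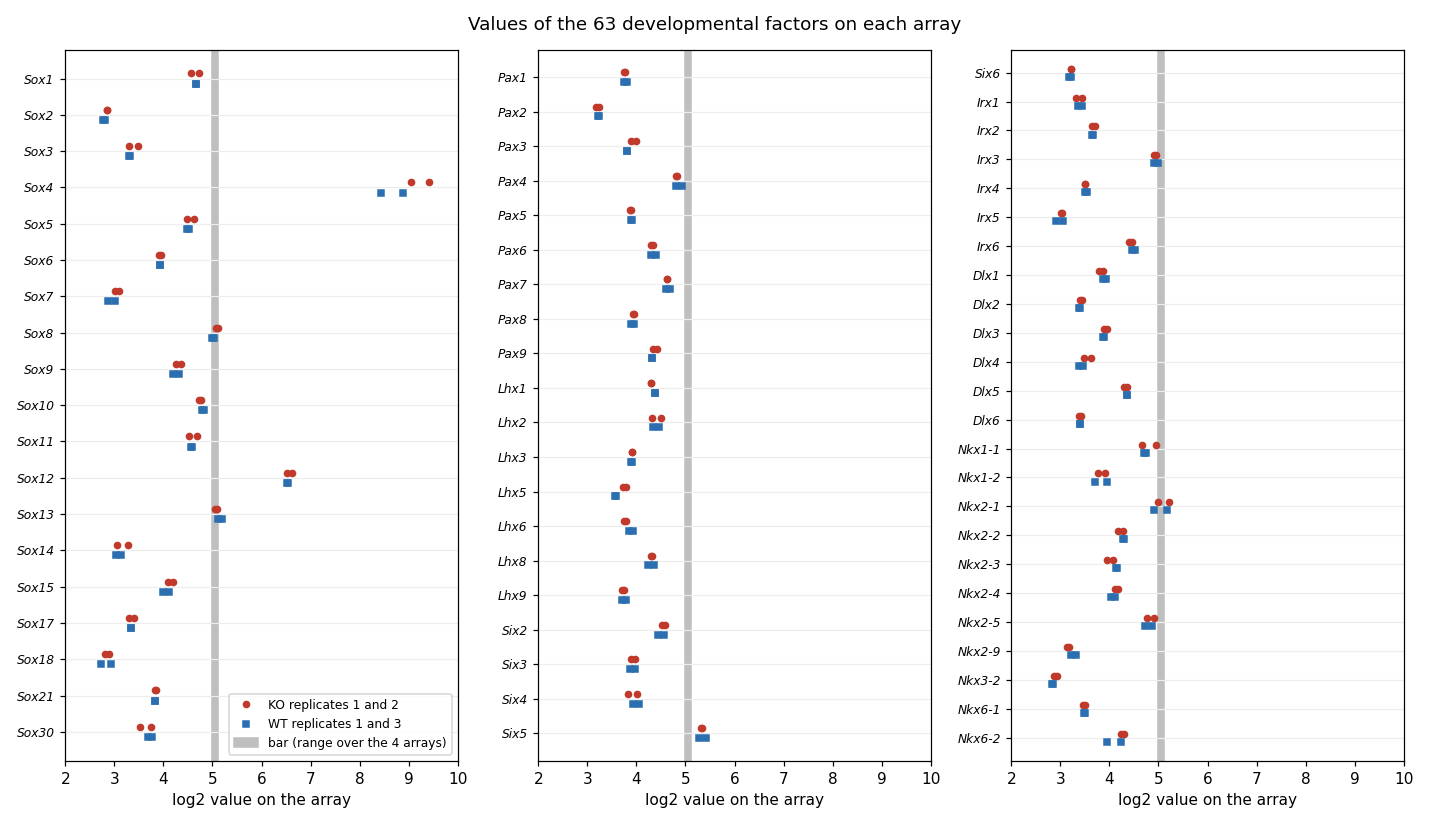
Log2 value of each of the 63 factors on each array, with KO replicates (circles) above WT replicates (squares) in every row. The grey band spans the 4 arrays' background bars, 4.98 to 5.11. Sox4, Sox12 and Six5 lie to its right on every array, and Sox13, above each array's own bar, has its KO values of 5.06 and 5.10 inside the band.

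Sox4 is a SoxC factor that early lymphocytes need and that restrains Th2 differentiation in mouse T cells. It read 9.42 and 9.05 on the arrays labelled KO and 8.44 and 8.88 on the arrays labelled WT. The groups did not overlap, but KO replicate 2 and WT replicate 3 lay closer to each other than either lay to the other array of its own group. The means were 9.24 ± 0.26 and 8.66 ± 0.31 (SD, n = 2 each), the arrays labelled KO first, a difference of 0.58 on the log2 scale (SE 0.22, 95% interval 0.03 to 1.12). That is a 1.49-fold higher level with an interval of 1.02 to 2.18, and it did not pass (limma p 0.0432, adjusted p 0.470 over all genes). Leaving out WT replicate 1 gave 0.36 (limma adjusted p 0.681).

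The upstream sequence of Sox4 is shown with those of Sox12, Dlx2 and Pax5, because all are CpG-rich while the first pair of genes was read as expressed and the second was not. Each line gives the 250 bases before the annotated start, from RefSeq on GRCm38.p6, with CpG dinucleotides in capitals. They lie at chr13:28953700-28953949 for Sox4, chr2:152398047-152398296 for Sox12, chr2:71546755-71547004 for Dlx2 and chr4:44710695-44710944 for Pax5, all on the minus strand.
Sox4: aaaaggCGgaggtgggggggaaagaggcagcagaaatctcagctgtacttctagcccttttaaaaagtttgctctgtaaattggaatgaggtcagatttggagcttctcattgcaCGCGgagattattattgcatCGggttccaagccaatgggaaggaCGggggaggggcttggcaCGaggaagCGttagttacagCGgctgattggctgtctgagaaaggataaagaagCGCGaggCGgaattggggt
Sox12: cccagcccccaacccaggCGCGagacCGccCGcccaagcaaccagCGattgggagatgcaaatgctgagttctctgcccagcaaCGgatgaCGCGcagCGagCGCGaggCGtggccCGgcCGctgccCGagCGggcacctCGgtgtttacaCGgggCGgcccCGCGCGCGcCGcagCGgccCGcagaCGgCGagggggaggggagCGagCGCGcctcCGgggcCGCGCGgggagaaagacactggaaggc
Dlx2: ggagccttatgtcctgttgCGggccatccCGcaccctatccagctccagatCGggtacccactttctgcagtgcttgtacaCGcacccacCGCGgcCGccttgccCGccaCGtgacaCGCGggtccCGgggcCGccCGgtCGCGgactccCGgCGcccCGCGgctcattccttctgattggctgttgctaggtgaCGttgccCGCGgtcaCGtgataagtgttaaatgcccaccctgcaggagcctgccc
Pax5: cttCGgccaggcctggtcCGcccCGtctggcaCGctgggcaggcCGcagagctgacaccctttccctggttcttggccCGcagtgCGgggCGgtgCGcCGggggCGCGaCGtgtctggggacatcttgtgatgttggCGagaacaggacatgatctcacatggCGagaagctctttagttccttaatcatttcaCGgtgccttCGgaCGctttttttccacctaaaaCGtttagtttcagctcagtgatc
They hold 11, 35, 24 and 19 CpG dinucleotides in that order.

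Sox12, the SoxC relative of Sox4, has been linked to Foxp3 induction in peripheral mouse T cells. It read 6.63 and 6.52 on the arrays labelled KO and 6.51 and 6.55 on the arrays labelled WT. The groups overlapped, and all 4 values spanned less than the pair of Sox4 values within either group. The difference was 0.05 (SE 0.11, 95% interval -0.24 to 0.33, limma adjusted p 0.942), and as a ratio the interval ran from 0.85 to 1.26. Sox11, the remaining SoxC gene and a factor of the developing nervous system, read 4.53 and 4.68 on the arrays labelled KO and 4.59 and 4.57 on the arrays labelled WT, below the bar throughout.

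Sox13, a SoxD factor known from gamma delta T cells in mice, was at the edge of detection. It read 5.06 and 5.10 on the arrays labelled KO and 5.20 and 5.12 on the arrays labelled WT, between 0.04 and 0.09 above each array's bar. Both arrays labelled KO were lower, with a difference of -0.08 (SE 0.09, limma adjusted p 0.841). Its relatives Sox5 and Sox6, chondrocyte factors, lay below the bar, with differences of 0.05 (SE 0.09) and 0 (SE 0.07). At the stricter 99th percentile of the receptor clusters, 2 factors (Sox4 and Sox12) were read as expressed.

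The SoxE gene Sox8 sat on the other side of the same edge. It read 5.08 and 5.11 on the arrays labelled KO, above their bars, and 5.0 and 5.04 on the arrays labelled WT, below theirs. The difference was 0.08 (SE 0.09, limma adjusted p 0.846). The bars of the arrays labelled WT were themselves the higher ones, as given above. The neural crest and cartilage factors Sox10 and Sox9 stayed below the bar on all 4 arrays, with differences of -0.06 (SE 0.08) and 0.06 (SE 0.09).

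The other Sox genes were below the bar on every array. Sox2, the pluripotency factor, read 2.85 and 2.86 on the arrays labelled KO and 2.81 and 2.76 on the arrays labelled WT, and the SoxB1 genes had differences of -0.03 to 0.09. The SoxF genes Sox7, Sox17 and Sox18, which act in endothelium, had differences of 0.02 to 0.11. Of 8 measured endothelial markers, 1 was above the bar on all 4 arrays (Pecam1, which T cells also carry), and Cdh5 and Kdr were below it on each. Across the 19 Sox genes, of which 3 were read as expressed, 14 differences were above 0 and 4 below (all genes 51.1% and 47.9%). The median Sox difference of 0.05, against 0.01 over all genes, was below the median SE of 0.09 of these genes.

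Six5, a homeodomain gene beside the myotonic dystrophy kinase gene Dmpk, was the remaining factor read as expressed. It read 5.32 and 5.33 on the arrays labelled KO and 5.41 and 5.28 on the arrays labelled WT. These values lay between 0.20 and 0.34 above each array's bar and below the 99th percentile of the receptor clusters on every array. The groups overlapped, and the difference was -0.02 (SE 0.10, 95% interval -0.27 to 0.23, limma adjusted p 0.969), with a positive sign after either rescaling of the arrays. Among its relatives, Six4, a muscle regulator, read 3.83 and 4.02 on the arrays labelled KO and 4.06 and 3.94 on the arrays labelled WT. Six2, Six3 and Six6, of kidney, forebrain and eye development, differed by 0.05, 0.03 and 0.02.

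All 9 Pax genes lay below the bar on every array. Pax5, which fixes B cell identity, read 3.86 and 3.88 on the arrays labelled KO and 3.91 and 3.88 on the arrays labelled WT, with a difference of -0.03 (SE 0.07). The B cell markers gave a mixed picture: 3 of 11 measured ones lay above the bar on all 4 arrays, among them Cd79b, at 7.42 and 7.64 on the arrays labelled KO and 7.53 and 7.91 on the arrays labelled WT. Ms4a1 and Cd79a, which define B cells, lay below it on all 4. Pax6, the eye and pancreas regulator, differed by -0.03 (SE 0.08). Pax3, of neural crest and muscle, read 3.88 and 4.0 on the arrays labelled KO and 3.81 and 3.80 on the arrays labelled WT, without overlap, and its difference of 0.14 (SE 0.08) did not pass (limma adjusted p 0.658). Over the 9 Pax genes differences ran from -0.05 to 0.14, with 3 above 0 and 6 below (all genes 51.1% and 47.9%).

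Among the Lhx genes, Lhx5, a forebrain factor, came closest to the threshold after Sox4. It read 3.73 and 3.78 on the arrays labelled KO and 3.59 and 3.57 on the arrays labelled WT, so the groups did not overlap. The difference was 0.18 (SE 0.07, 95% interval -0.01 to 0.36, limma adjusted p 0.504), at values at least 1.25 below the bar. Lhx6, of cortical interneurons, had the opposite sign, at 3.75 and 3.78 on the arrays labelled KO and 3.93 and 3.84 on the arrays labelled WT (difference -0.12, SE 0.08, limma adjusted p 0.684). Lhx1, needed for head and kidney formation, had -0.08 (SE 0.08) without overlap. Lhx2, known from eye and blood progenitors, had 0.02 (SE 0.11).

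Irx and Dlx genes lie in pairs and triplets along the chromosomes and were below the bar throughout. Irx3 and Irx5, of heart and neural development, had differences of -0.03 (SE 0.09) and 0.04 (SE 0.08), and the 6 Irx genes ran from -0.07 to 0.04. Dlx1 and Dlx2, which drive interneuron development, had differences of -0.07 (SE 0.08) and 0.04 (SE 0.07). Dlx5, a jaw and bone factor, had -0.03 (SE 0.08). Dlx4 read 3.49 and 3.62 on the arrays labelled KO and 3.46 and 3.38 on the arrays labelled WT, without overlap, and its difference of 0.14 (SE 0.08) did not pass (limma adjusted p 0.666).

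Nkx genes were likewise at background, apart from Nkx2-1, the thyroid and lung factor, which touched the bar. It read 5.0 and 5.21 on the arrays labelled KO and 4.91 and 5.17 on the arrays labelled WT, above its bar on 3 of 4 arrays, and varied more within each group than between them (difference 0.07, SE 0.14). Nkx2-3, which spleen stroma and gut vessels use, read 3.95 and 4.08 on the arrays labelled KO and 4.14 and 4.15 on the arrays labelled WT. Both arrays labelled KO were lower, and the difference of -0.13 (SE 0.09) did not pass (limma adjusted p 0.686). None of the 10 measured spleen stroma markers was above the bar on all 4 arrays. Nkx2-9, a neural tube factor, had -0.11 (SE 0.07) without overlap (limma adjusted p 0.697). For Nkx1-1 and Nkx1-2 a second cluster gave -0.06 (SE 0.09) and 0.23 (SE 0.11), against 0.07 (SE 0.12) and 0.01 (SE 0.12) for the brighter one, so the clusters of Nkx1-1 disagreed in sign.

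Over all 63 factors, 0 passed a limma adjusted p under 0.05, where 0.0067% of all genes did (2 of 29860). At an unadjusted limma p under 0.05 there was 1 factor, Sox4 (1.59%), against 10.3% of all genes, 6.45% with a positive and 3.81% with a negative difference. For 17 factors (27%) the groups had no overlap, 10 of them with a positive and 7 with a negative difference, against 38.6% of all genes (21.1% and 17.5%). The shares at the unadjusted p and without overlap lay below those of all genes, and so did the share read as expressed. With 2 of 29860 genes passing the adjusted threshold, 0 among 63 says nothing about the factors. Near background a change can be understated, and 59 of the 63 factors were not read as expressed. Of those 59, 0 had an unadjusted limma p under 0.05, and the groups did not overlap for 9 with a positive and 6 with a negative difference. Of the 15840 genes not read as expressed, the matching counts were 1022, 2179 and 2937. Taken as shares of 59 and of 15840, 9 lay slightly above 2179, while 0 and 6 lay below 1022 and 2937. No factor differed by 2-fold or more, against 0.666% of all genes. The 95% interval stayed within a 2-fold change either way for 62 of the 63, the exception being Sox4, and for 95.5% of all genes.

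**Figure D2:**
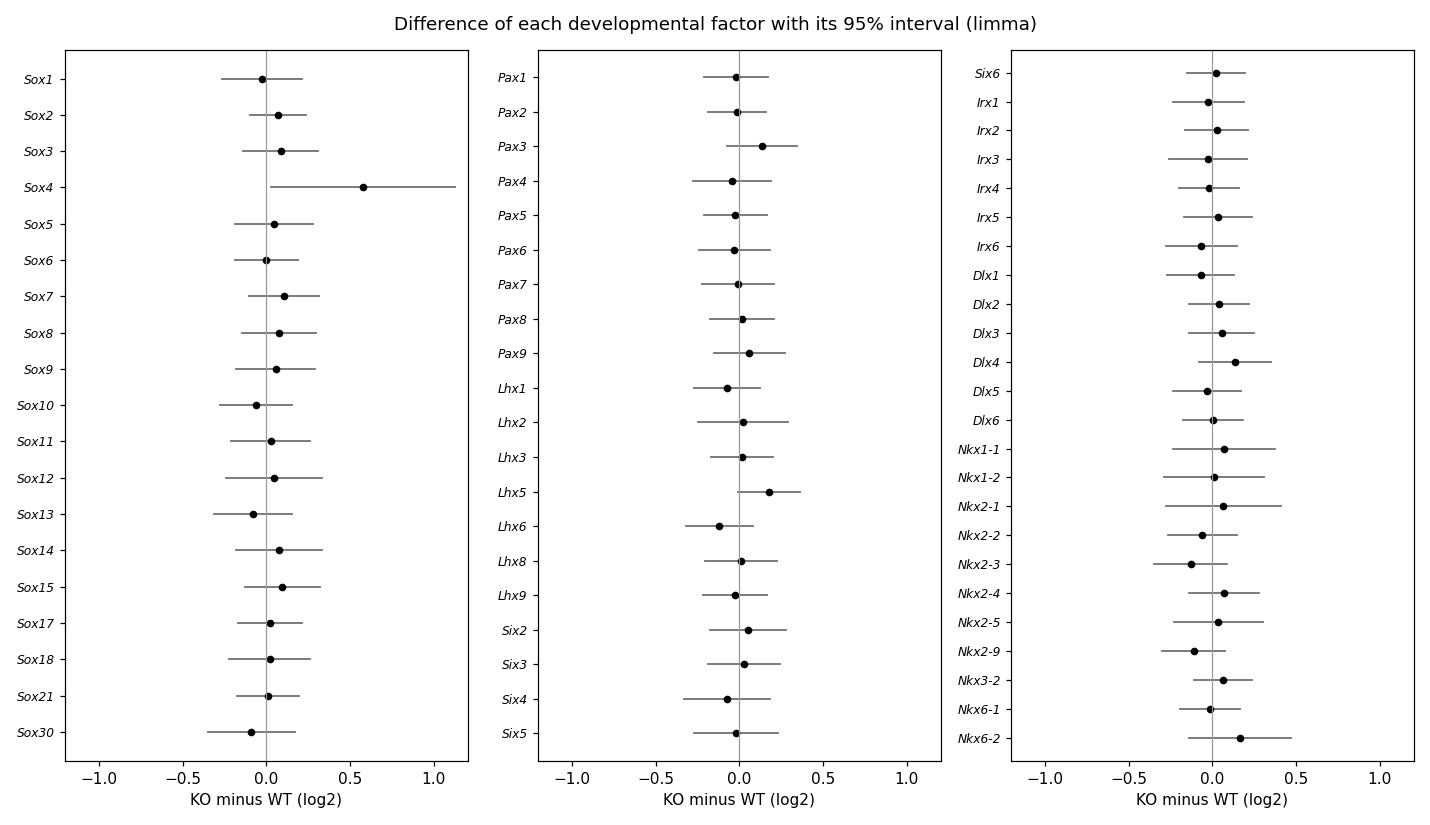
Difference (KO minus WT, log2) of each factor as a point with its 95% interval from limma as a line. The interval of Sox4, from 0.03 to 1.12, is the 1 of 63 that does not include 0, and all other points lie between -0.13 and 0.18.

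The factors varied little among themselves. Their median difference was 0.02 on the log2 scale (all genes 0.01), and the middle of the range, from the 25th to the 75th percentile, was -0.03 to 0.06, against -0.09 to 0.12 for all genes. Differences were above 0 for 37 (58.7%, all genes 51.1%) and below 0 for 25 (39.7%, all genes 47.9%), with Sox6 at 0. Centring the arrays on their medians turned that split to 44 above 0, and quantile normalization to 45. Leaving out KO replicate 2 gave 28 above 0 and a median of -0.01, and leaving out WT replicate 3 gave 31 and a median of 0, so the direction of the split was not stable. The median size of a difference was 0.05, below its median SE of 0.08. For the 59 factors not read as expressed that size was 0.05, against 0.08 over the 15840 genes not read as expressed.

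**Figure D3:**
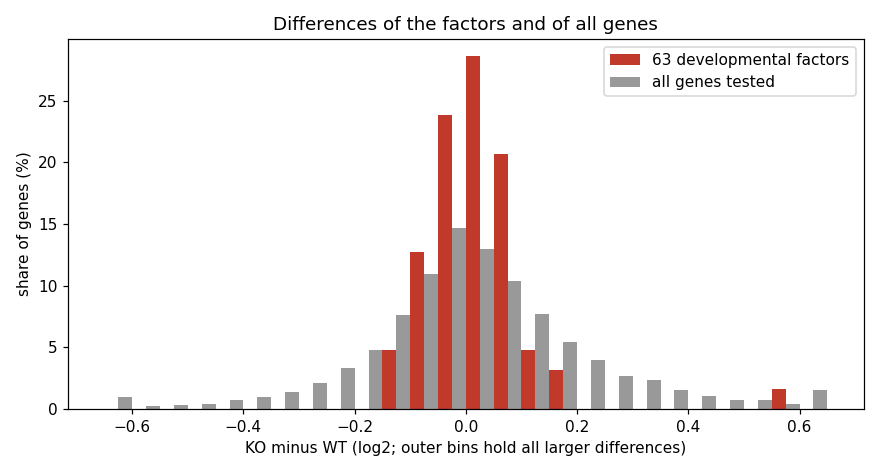
Share of the 63 factors (red) and of all 29860 genes (grey) in bins of KO minus WT, log2, with larger differences gathered in the outermost bins. All factors but Sox4 fall between -0.13 and 0.18.

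Factors that neighbour each other in the genome were set side by side, since Polycomb domains can span several genes. In the RefSeq annotation of GRCm38.p6, used for gene order only, 22 factors fell into 9 groups with at most 3 other protein-coding genes between neighbours. None of the 22 was read as expressed. Within Nkx2-1, Nkx2-9 and Pax9 on chromosome 12 the differences ran from -0.11 to 0.07, and within Nkx2-4, Nkx2-2 and Pax1 on chromosome 2 from -0.06 to 0.07. All members had the same sign only at Dlx3 and Dlx4 (0.06 and 0.14) and at Six3 and Six2 (0.03 and 0.05), and none of these passed.

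Partners of the families were examined through lists of related genes. Of the HMG-box relatives and cofactors of Sox proteins, 8 of 11 measured genes were read as expressed, against 47% of all genes. Lef1, a Wnt effector that naive T cells express, read 12.84 and 12.87 on the arrays labelled KO and 12.31 and 12.51 on the arrays labelled WT. Both arrays labelled KO were higher, by 0.45 (SE 0.12, limma adjusted p 0.358), and Tcf7l2, its relative, which lay below the bar on both arrays labelled WT, had 0.27 (SE 0.10, limma adjusted p 0.474). Of the 11, 0 passed and 2 (Lef1 and Tcf7l2) had an unadjusted p under 0.05, where 10.3% of all genes did, and the list's median was -0.06. The mean over the 9 T cell markers was 13.89 and 13.81 on the arrays labelled KO and 13.64 and 13.72 on the arrays labelled WT.

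LIM-domain partners of Lhx proteins were read as expressed for 6 of 13 genes, a share close to the 47% of all genes. Lmo4, a LIM-only adaptor, read 7.73 and 7.90 on the arrays labelled KO and 7.21 and 7.24 on the arrays labelled WT. The groups lay well apart, by 0.59 (SE 0.13, 1.51-fold, limma adjusted p 0.298), which did not pass. Ldb1, the scaffold that joins LIM proteins, had 0.18 (SE 0.12, limma adjusted p 0.708). Of the 13, 0 passed and 1 (Lmo4) had an unadjusted p under 0.05, where 10.3% of all genes did, with a list median of 0. Eya coactivators bind Six4, Six5 and their relatives. Of 6 measured partners, Eya2 and Eya3 were read as expressed. Eya2 had -0.18 (SE 0.16) and Sobp, a cofactor below the bar, -0.14 (SE 0.09), and none of the 6 had an unadjusted p under 0.05.

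A list of 67 further measured developmental regulators was examined as well, with a median difference of 0.03. Of these, 3 were read as expressed (Hlx, Gsx2 and Neurog2), where 47% of all genes were. None of the 3 lay above the 99th percentile of the receptor clusters on all 4 arrays, and Gsx2 and Neurog2 did so on none. In the list 0 passed, where 0.0067% of all genes did. The 1 with an unadjusted limma p under 0.05 (10.3% of all genes) was Vax2, a ventral eye homeodomain factor. It read 5.52 and 5.63 on the arrays labelled KO, above their bars, and 4.91 and 4.81 on the arrays labelled WT, below theirs. No value of Vax2 lay above the 99th percentile of the receptor clusters on its array. The difference was 0.72 (SE 0.10, limma p 6.99e-04, adjusted p 0.210), which did not pass, and with both arrays labelled WT below the bar it can understate the change. Gbx2, a hindbrain boundary factor, had 0.17 (SE 0.08, limma adjusted p 0.593).

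**Figure D4:**
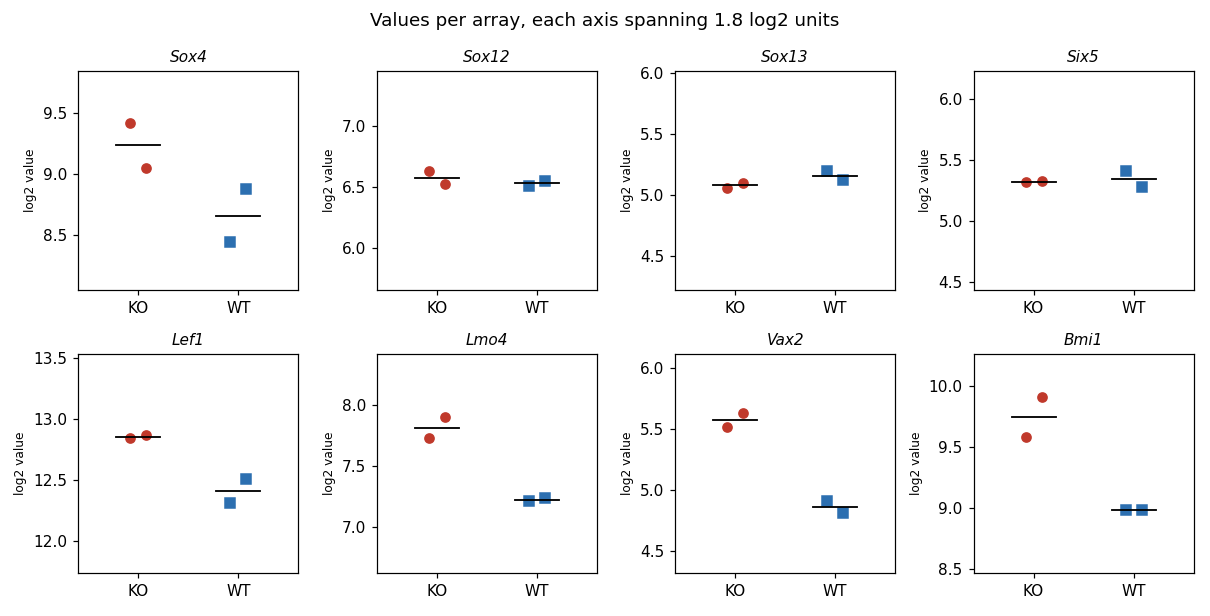
Log2 value on each array, KO left (circles) and WT right (squares), with the group mean as a line, for the 4 expressed factors, 3 partner or related genes and Bmi1. Every vertical axis spans 1.8 log2 units, so distances can be compared, and Sox4, Lef1, Lmo4, Vax2 and Bmi1 show no overlap with KO above WT.

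Markers of antibody-secreting cells differed unevenly, and 0 of 8 passed. The mean over 8 measured plasma cell markers was 6.45 and 6.38 on the arrays labelled KO and 5.87 and 5.97 on the arrays labelled WT, and the list's median difference was 0.24. Differences were above 0 for 7 of 8 (all genes 51.1%), and for 4 of 8 both arrays labelled KO were higher without overlap (all genes 21.1%). Ighg2b, an antibody heavy chain gene, differed by 1.81 and Jchain, the joining chain, by 1.03, the largest of the list (lowest limma adjusted p 0.0972). The mean over 11 B cell markers was 4.89 and 4.95 on the arrays labelled KO and 4.96 and 5.12 on the arrays labelled WT, and their median difference was -0.03. Fcmr, an IgM receptor, had the largest difference of that list, at 6.21 and 6.05 on the arrays labelled KO and 7.05 and 7.51 on the arrays labelled WT (difference -1.15, limma adjusted p 0.267). Their part in the differences of Sox4, Lmo4, Lef1 and Vax2 was not tested.

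Promoters of the factors were more often CpG-rich than those of all genes, a feature that their names did not choose. A RefSeq promoter was available for 47 of the 63, and where a gene had several the first listed was used. CpG-rich was taken as an observed over expected CpG ratio of at least 0.6 with at least 50% G and C in the 250 bases upstream. By that measure 31 of the 47 were CpG-rich (66%), against 8488 of 27018 genes (31.4%). The median ratio was 0.69 among the factors and 0.38 among all genes, and the median G and C content was 62.8% and 52.0%. CpG-rich promoters belonged to 3 of the 4 expressed factors and to 28 of the other 43 (65.1%).

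**Figure D5:**
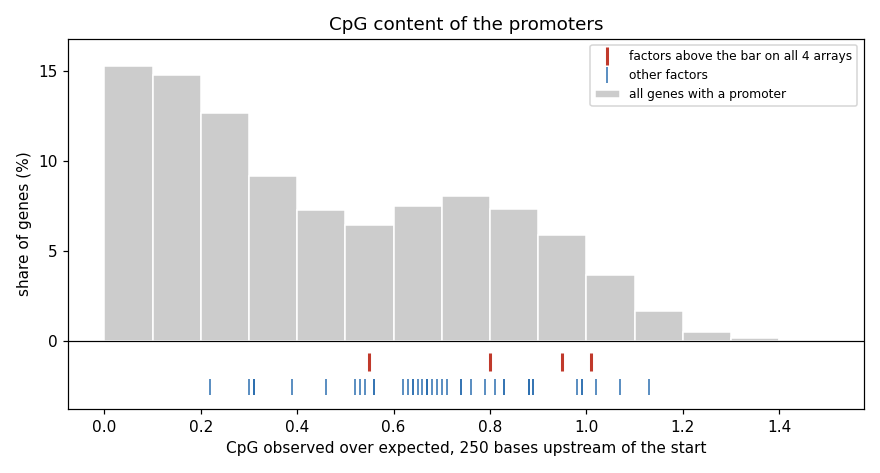
Observed over expected CpG ratio in the 250 bases upstream of the start, for all genes as grey bars (share of genes) and for the factors as ticks under the axis. The 4 expressed factors (upper ticks, 0.55 to 1.01) lie within the range of the 43 others (lower ticks, 0.22 to 1.13).

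Short motifs were counted on both strands of the same window. GGGCGG, the core of the Sp1 site, which contains a CpG itself, stood in 28 of the 47 factor promoters (59.6%) and in 32.9% of all promoters. TATAAA, the TATA box, stood in 1 (2.13%, Lhx3) and in 13% of all. AACAAT, a core that Sox proteins bind, stood in 3 (6.38%, Nkx2-1, Nkx2-4 and Nkx2-9) and in 9.65% of all. A match describes letters in this window, not a bound site.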

How the data were processed

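The authors deposited 1 table of log2 values for 65528 transcript clusters on 4 one-colour arrays. Per the submitters' processing notes, Transcriptome Analysis Console and RMA, which summarises probes on a log2 scale, were used, without versions. The labels' protocols describe real-time PCR, so array labelling, hybridisation and genome build remain unstated here. All 4 columns were used.

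Clusters were named through the platform annotation, counting repeats of a symbol once: 30390 had 1 symbol, 2127 had several and 33011 were not listed. Symbols were updated through the RefSeq annotation of GRCm38.p6 (1126 changed). The gene identifier was used for 22634 of the 30390 clusters. For the rest the symbol or a synonym was matched, or the platform name was kept. Each gene was represented by its cluster of highest mean, giving 29860 genes. KO minus WT was tested with limma 3.58.1 in R 4.3.3 (lmFit and eBayes, variance trend by intensity). P-values are two-sided, adjusted by Benjamini-Hochberg over all genes, with a threshold of 0.05. Alternatives were other scalings, filters, moderation and bars, and leaving out each array. An exact permutation test of 2 against 2 arrays cannot give p below 0.333. The limma procedure was also run on simulated data with planted changes larger than any difference among the factors. That run therefore cannot tell whether changes of the size seen here would be called.

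The members, lists and tests were chosen with earlier results of these data known. Genes named are the factors read as expressed, those with an unadjusted p under 0.05, the 5 largest differences each way without overlap, a fixed list, and the 2 smallest p-values of each related list. Hlx, Gsx2, Neurog2, Eya3, Nkx2-1, the second clusters of Nkx1-1 and Nkx1-2, the cell type markers given with values, and genes given beside their relatives were named after their values were seen. Marker lists of CD8 and gamma delta T cells, myeloid cells and erythroid cells had 1 of 5, 2 of 10 and 0 of 5 measured genes above the bar on all 4 arrays.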

Additional observations from a re-analysis of the deposited data

How the results depend on the processing

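No factor passed a limma adjusted p under 0.05, and none of the related lists' genes did, under any of the alternatives run. The count of factors with an unadjusted limma p under 0.05, 1 as reported, was 2 after quantile normalization (Sox4 and Lhx5) and 0 when all transcript clusters were fitted. Without single arrays it ran from 0 to 2: it was 0 without KO replicate 1, KO replicate 2 or WT replicate 1, and 2 without WT replicate 3 (Sox4 and Nkx6-2). Sox4 stayed above 0, between 0.355 and 0.795 (limma adjusted p 0.322 to 0.804). Among brighter genes only, 6 factors were tested and 4 were higher in the arrays labelled KO. At the 99th percentile bar 2 factors were read as expressed, and with the bar passed on at least 2 arrays 6. Signs turned for differences near 0. Six5 had 0.005 after centring the arrays and 0.0075 after quantile normalization, and Pax5 had 0.0013 after the same normalization. Leaving out each array in turn, the differences ran from -0.085 to 0.045 for Six5, from -0.075 to 0.025 for Irx3, from -0.04 to 0.11 for Irx5, from -0.075 to 0.115 for Lhx2 (and -0.045 without WT replicate 1), from -0.075 to 0.015 for Pax6, from -0.17 to 0.02 for Six4, from -0.01 to 0.1 for Sox12 and from -0.025 to 0.115 for Sox5. The cause was not tested. No paired analysis was possible because the groups share only 1 replicate number. Signal over background limits 59 of the 63 factors, whose changes can be understated.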

Other observations

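Antisense and overlapping partner transcripts of the same families, outside the 63 factors, were also at background. Of the 4 with a cluster under a single symbol, none lay above the bar on any array. Six3os1, the transcript opposite Six3, read 3.56 and 3.56 on the arrays labelled KO and 3.70 and 3.56 on the arrays labelled WT. Sox1ot, Pax6os1 and Dlx6os2 had differences of -0.03 (SE 0.10), 0.04 (SE 0.10) and -0.07 (SE 0.13), KO minus WT on the log2 scale. The groups overlapped for all 4, and limma adjusted p over all transcript clusters ran from 0.887 to 0.963.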
